A study of Mus musculus with 3 samples.

Results

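The 86 genes described here encode the proteins of the cytosolic ribosome, out of 32285 genes counted in the series. They were chosen by symbol alone: Rpl or Rps followed by a number, Rplp0 to Rplp2, and Rpsa, leaving out 5 symbols with -ps and 10 Rps6k kinases. Of the 86, 77 are ribosomal proteins proper (46 of the large and 31 of the small subunit), and 8 are paralogues (Rpl3l, Rpl7l1, Rpl10l, Rpl22l1, Rpl36al, Rpl39l, Rps27l and Rps27rt). The last, Rps19bp1, is no ribosomal protein but a partner of Rps19 that carries its name.

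All cells derive from E14tg2a mouse embryonic stem cells with an inducible GATA4 transgene. Bilayered embryo-like aggregates (BELAs) and visceral endoderm cysts (VE cysts) came from 1 clone, C6, induced with 0.5 µg/ml doxycycline for 8 h. BELAs then spent 16 h in N2B27 before seeding and 3 days after it. VE cysts had doxycycline for another 16 h with FGF4 (10 ng/ml) plus heparin at 1 µg/ml, which stayed in the medium for the 3 days after seeding. Round structures of both kinds were picked by hand, and VE cysts with a visible Epi-like core were avoided. Epiblast (Epi) cysts grew from uninduced cells in matrigel for 3 days in N2B27 after a start in 2i and LIF. Each kind of aggregate was 1 library of single cells, so no comparison below has replicates, no test was run, and between libraries the kind of aggregate, the culture and the library cannot be told apart.

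Cells with at least 4000 genes and at most 10% mitochondrial (mt-) UMIs were kept, where a UMI (unique molecular identifier) marks 1 captured mRNA molecule. A cell was called VE when its UMIs of Gata6, Sox17, Dab2 and Cubn together exceeded those of Pou5f1, Sox2, Nanog and Fgf4, and Epi otherwise. This gave 542 VE and 868 Epi cells in BELAs, 577 VE and 48 Epi cells in VE cysts, and 656 Epi cells and 1 VE cell in Epi cysts. The single VE cell is not compared. The 7 further VE markers that the rule did not use were all higher in both VE groups than in every Epi group, and 5 of 6 further Epi markers were lower. The other Epi marker, Dppa5a, was higher in BELA VE and VE cyst VE cells (1199 and 696 UMIs per 1000000) than in every Epi group (120 to 667). Summed markers of trophoblast ranged from 9.07 to 19.8 CPM (UMIs per 1000000 UMIs) in the VE groups and from 7.81 to 8.93 CPM in the Epi groups, those of fibroblasts from 74.8 to 180.3 CPM and from 8.13 to 21.1 CPM, and those of blood and endothelium from 27.9 to 29.4 CPM and from 3.40 to 7.92 CPM. Single genes made up most of the last 2 sums in the VE: Pdgfra stood at 73.4 and 179.8 CPM in BELA VE and VE cyst VE cells and Runx1 at 25.3 and 26.5 CPM, while Col1a1, Hbb-bh1 and Hba-x did not pass 0.489 CPM in any group and Thy1 was lower in both VE than in all Epi groups. Of the marker lists for other cell types, neural genes stood at 0.874 to 2.22 CPM in the VE and 14.03 to 34.1 CPM in the Epi groups, and germ cell genes at 1.30 to 2.49 and 5.57 to 11.9 CPM. The part of such cells in what follows was not tested. The 3 libraries held 1410, 657 and 625 kept cells (BELAs, Epi cysts, VE cysts) at median depths of 82741.5, 60160.0 and 58554.0 UMIs, and no kept barcode was shared between libraries.

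A ribosome is built from 1 copy of nearly every one of these proteins, on ribosomal RNA that is transcribed and processed in the nucleolus. Cells therefore make the proteins in matched amounts, and proteins made in excess are degraded. Most of their mRNAs begin with a C followed by a run of pyrimidines, the 5' terminal oligopyrimidine (TOP) motif, through which the kinase complex mTORC1 and the RNA-binding protein Larp1 govern their translation and stability. Fast-growing pluripotent cells are known for high ribosome production. The visceral endoderm is an absorptive epithelium that spends much of its transcription on secreted and endocytic proteins.

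RefSeq's promoter sequences (GRCm38.p6) held 57 of the 77 ribosomal proteins proper, with 67 annotated starts. On the gene's strand, a run of at least 8 C or T bases that opens with C lay within 20 bases of 29 of these 67 starts (43.3%), against 4125 of the 32851 starts in the whole table (12.6%). The 30 bases around the start are shown for members that stand out below, with the annotated start at base 16 and such a run, where present, in capitals. The other windows hold no such run, which says only that these letters are not there. Rpl19 and Rps24 also have a second annotated start without a run.
Rpl19, chr11:98026909-98026938, plus strand: tgggCTCTCCCCTTCgcagataatgggcgg
Rps24, chr14:24490663-24490692, plus strand: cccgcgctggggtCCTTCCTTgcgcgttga
Rpl7a, chr2:26910792-26910821, plus strand: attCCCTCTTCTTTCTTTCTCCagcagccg
Rps27, chr3:90213634-90213663, minus strand: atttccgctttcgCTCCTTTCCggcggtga
Rpl23, chr11:97782425-97782454, minus strand: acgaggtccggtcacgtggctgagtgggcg
Rplp0, chr5:115559452-115559481, plus strand: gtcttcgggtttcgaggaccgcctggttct
Rps28, chr17:33824548-33824577, minus strand: ggtaccgcgtgcggtctcgcgagagcgaaa
The members with and without a run did not separate in any comparison: the median departure from the rest of the members (defined below) lay between -0.03 and -0.01 on the log2 scale for the 28 genes with a run at any start and between -0.01 and 0.04 for the 29 without.

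Ribosomal protein mRNAs took a smaller share of the transcriptome in VE than in Epi cells, in BELAs and in VE cysts alike. Their share of all UMIs was 21.8% in BELA VE and 29.2% in BELA Epi cells, and 18.4% in VE cyst VE and 28.4% in VE cyst Epi cells. Epi cyst Epi cells stood at 28.4%, within 1 percentage point of the other Epi groups. The counting error of these shares is small, with 95% Clopper-Pearson intervals of 21.75 to 21.78% in BELA VE and 28.33 to 28.42% in the 48 VE cyst Epi cells. All intervals given here cover counting error only.

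The lineages separated cell by cell. The lower to upper quartile of cells ranged from 19.4 to 24.1% in BELA VE and from 27.6 to 30.8% in BELA Epi, and from 16.8 to 20.2% in VE cyst VE and from 27.1 to 29.7% in VE cyst Epi. Among BELA VE cells 95.02% lay below the lower quartile of BELA Epi cells, and among VE cyst VE cells 99.3% lay below that of the VE cyst Epi cells. The spread was widest in BELA VE cells (SD 3.52 percentage points) and 2.54 to 2.96 in the other groups. The median number of member UMIs per cell was 19088 in BELA VE and 22775.5 in BELA Epi cells, at median depths of 90251 and 78973 UMIs, so it was lower in the VE although these cells were deeper. It was 10938 in VE cyst VE and 24366.5 in VE cyst Epi cells, where the VE cells were shallower (56914 and 87189 UMIs).

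**Figure D1:**
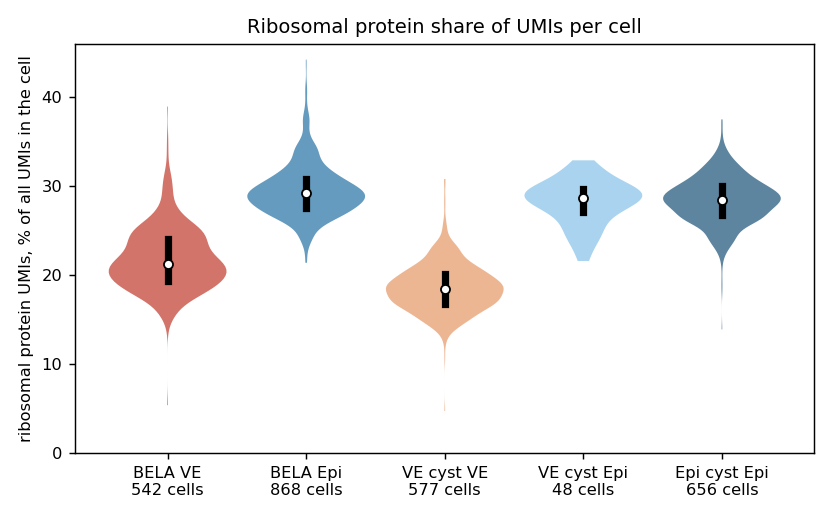
Share of a cell's UMIs that came from the 86 ribosomal protein genes, in percent (y axis), for each group of cells (x axis). Violins show the cells, black bars the lower to upper quartile and white points the median, which lies at 21.3 and 18.5% in the VE groups of BELAs and VE cysts and at 28.5 to 29.2% in the 3 Epi groups.

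Inside a group the member share was weakly lower in deeper cells. Across cells, Spearman's rho between the share and the depth was -0.10 in BELA VE (542 cells), -0.32 in BELA Epi (868), -0.14 in VE cyst VE (577) and -0.16 in Epi cyst Epi cells (656). In 3 classes of cells from lowest to highest depth, the share was 22.5, 21.2 and 21.8% in BELA VE and 30.8, 28.8 and 28.7% in BELA Epi cells. It was 18.8, 19.1 and 17.8% in VE cyst VE and 29.1, 28.3 and 28.0% in Epi cyst Epi cells. The fall was thus not steady in either VE group. Mitochondrial UMIs were higher in the VE, at 4.77% in BELA VE against 3.49% in BELA Epi and 5.57% in VE cyst VE against 3.19% in VE cyst Epi cells. When levels were computed without mt- genes the pooled log2 ratio of VE over Epi was -0.40 in place of -0.42 in BELAs and -0.59 in place of -0.63 in VE cysts. The Epi markers that the lineage rule did not use were found in BELA VE cells to unlike degrees. Utf1 stood at 246 CPM in BELA VE and 615 CPM in BELA Epi cells and Dnmt3b at 335 and 958 CPM. Tdgf1 stood at 5.26 and 102 CPM, Dppa4 at 31.1 and 59.4 CPM and L1td1 at 152 and 287 CPM, while Dppa5a was higher in BELA VE. The Epi markers used by the rule, which chose the cells, together stood in BELA VE at 6.68% of their BELA Epi level. The part of mRNA from the other lineage in the member share was not tested. Within BELA VE, the 186 cells with at least 3 UMIs of Lhx1, a transcription factor of the anterior visceral endoderm, had a share of 21.1% and the 250 cells with none 22.5%, at median depths of 103058 and 81722.5 UMIs.

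Both subunits contributed. Small subunit genes held 9.35% of UMIs in BELA VE and 12.4% in BELA Epi cells, and 8.20% in VE cyst VE and 12.3% in VE cyst Epi cells. Large subunit genes held 12.1 and 16.4% in BELA VE and BELA Epi cells, and 9.94 and 15.7% in VE cyst VE and VE cyst Epi cells. The ratio of large to small subunit UMIs was 1.30 in BELA VE, 1.32 in BELA Epi, 1.21 in VE cyst VE, 1.27 in VE cyst Epi and 1.28 in Epi cyst Epi cells, so that the large subunit was least represented in VE cyst VE cells.

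All 77 ribosomal proteins proper were detected in every group. Since 1 tag is read per mRNA at its 3' end, levels are molecules and need no scaling by length, but Cell Ranger leaves out reads that map to several genes, which makes the level of any member with near-identical copies uncertain. Over all cells, among the highest were Rps20 (5575 CPM), Rpl41 (5536), Rpl13 (5195) and the stalk protein gene Rplp1 (5097). The lowest were Rpl29 (158.5 CPM), Rpl31 (1376), Rps25 (1648), Rpl35 (1659.7) and Rpl36a (1731). Rpl29, whose loss mice survive with small stature, thus stood far below all other proteins proper.

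To compare groups, the log2 ratio of levels was taken with 5 CPM added to each. With 1 library per condition a gene counts as called when this ratio passes 1.5-fold at 10 CPM or more in either group, and a member as departing when its log2 ratio lies 0.32 or more from the median of the members with 50 CPM or more. At that level 83 of the 86 were measured in each comparison, all but Rpl3l, Rpl10l and Rpl39l. Folds in the text are plain ratios, with exact 95% counting intervals.

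In BELAs the pooled level of the members in VE over Epi cells was 0.746 (0.746 to 0.747), and the median of the 83 was -0.44 on the log2 scale against -0.05 for all 8401 genes measured. Nearly all shared the direction: 82 of the 83 were lower in VE and 1, Rpl23, was higher. Of the 84 members at 10 CPM or more, 18 were at least 1.5-fold lower and 0 higher, where 22.3% of all genes were called lower and 25.1% higher. The share of members past 1.5-fold in the downward direction (21.4%) thus resembled the background, while their ratios lay close together. Their SD on the log2 scale was 0.20, against 1.26 for all 3435 genes at 50 CPM or more. Only 10 of 83 members departed from their median, whereas 70.4% of all genes departed from theirs.

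The same held in VE cysts, with a larger shift. The pooled ratio of VE cyst VE over VE cyst Epi cells was 0.648 (0.647 to 0.649), and the members' median was -0.68 against 0.13 for all 8736 genes. Of 85 members 54 were at least 1.5-fold lower, against 23.3% of all genes, and 1 was higher, against 33.8%. That one, Rpl10l, passed the limit of 10 CPM only through the VE cells. Among the 83 members at 50 CPM or more, 82 were lower in VE and 1, Rps28, was level (1.02-fold, 1.01 to 1.04). Departures were seen in 19 of the 83, against 79.7% of all genes from their own median. These values rest on 48 Epi cells.

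Rplp0 fell furthest below the rest in both libraries. It encodes the scaffold of the ribosomal stalk, which binds Rplp1 and Rplp2 and recruits elongation factors (chromosome 5, 115559467 to 115563729, mm10). Its level was 3241 CPM in BELA VE and 6179 CPM in BELA Epi cells, 2136 CPM in VE cyst VE and 6123 CPM in VE cyst Epi cells, and 5871 CPM in Epi cyst Epi cells. The 3 Epi groups were thus close to each other and both VE groups far lower, 1.91-fold in BELAs and 2.87-fold in VE cysts. Its departure from the members' median was -0.49 in BELAs and -0.84 in VE cysts. Its stalk partners stayed near the median, with Rplp1 and Rplp2 at 0.10 and 0.07 in BELAs and at 0.07 and -0.02 in VE cysts.

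Rpl8, a large subunit protein close to the peptidyl transferase centre, also departed downwards in both libraries. It stood at 2606 CPM in BELA VE and 4730.3 CPM in BELA Epi cells, and at 1484 CPM in VE cyst VE and 3761 CPM in VE cyst Epi cells. It was 1.82-fold lower in BELA VE and 2.53-fold lower in VE cyst VE cells, and departed by -0.42 and -0.66. Past the limit in BELAs and not in VE cysts were Rps26, which contacts mRNA at the exit channel (-0.46 in BELAs, -0.02 in VE cysts), and Rpl23a at the tunnel exit (-0.35 and -0.23). In VE cysts the large subunit proteins Rpl7a (-0.49), Rpl27 (-0.42) and Rpl12 (-0.34) and the small subunit proteins Rps2 (-0.43), Rps12 (-0.33) and Rps6 (-0.33), the substrate of S6 kinase, also departed downwards. In BELAs these 6 lay between -0.21 and -0.11.

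At the other end, 6 members departed upwards in both libraries. Rpl23, a large subunit protein that also binds the p53 regulator Mdm2 (chromosome 11, 97777526 to 97782439), had 5381 CPM in BELA VE and 5043 CPM in BELA Epi cells, and 4498 CPM in VE cyst VE and 4541 CPM in VE cyst Epi cells. It had the highest ratio in BELAs among the 83 members at 50 CPM or more, 1.07-fold (1.06 to 1.07), and departed by 0.53 there and by 0.66 in VE cysts. Rps20, a protein of the small subunit's head, was at 5566 CPM in BELA VE and 5585 CPM in BELA Epi cells, and at 4928 CPM in VE cyst VE and 5006 CPM in VE cyst Epi cells, which gives departures of 0.43 and 0.65. Both thus stayed close to their Epi level. The remaining 4 were Rpl19, which forms bridges between the subunits (0.38 and 0.39), Rps24 (0.34 and 0.32), Rpl10, which joins the large subunit late in its maturation (0.32 and 0.60), and Rps16 (0.32 and 0.40). Rpl19, Rps24, Rps16 and Rpl10 were nevertheless lower in VE cyst VE than in VE cyst Epi cells (0.821-, 0.782-, 0.824- and 0.945-fold). They were also lower in BELA VE than in BELA Epi cells (log2 ratios of -0.05, -0.09, -0.12 and -0.11). Rps24 departed in VE cysts under 5 of 10 other settings. Upwards past the limit in VE cysts and not in BELAs were Rps28 (0.71), Rps19, a gene mutated in Diamond-Blackfan anaemia in humans (0.61), Rpl13a (0.42), Rps29 (0.38) and Rpl17 (0.37).

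The departures of the 2 libraries, which share no cells, resembled each other. Of the 10 members departing in BELAs 8 did so in VE cysts in the same direction, which is 80.0% of the first list and 42.1% of the 19 of the second, and 0 went in opposite directions. Across all genes the corresponding shares were 83.6 and 67.9%, so members overlapped no more than genes in general. Across the 83 members Pearson's r between the departures was 0.78 and Spearman's rho 0.77, against 0.95 and 0.93 over 3223 genes. This describes genes, which are not independent replicates, and the lineage rule is common to both libraries.

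**Figure D2:**
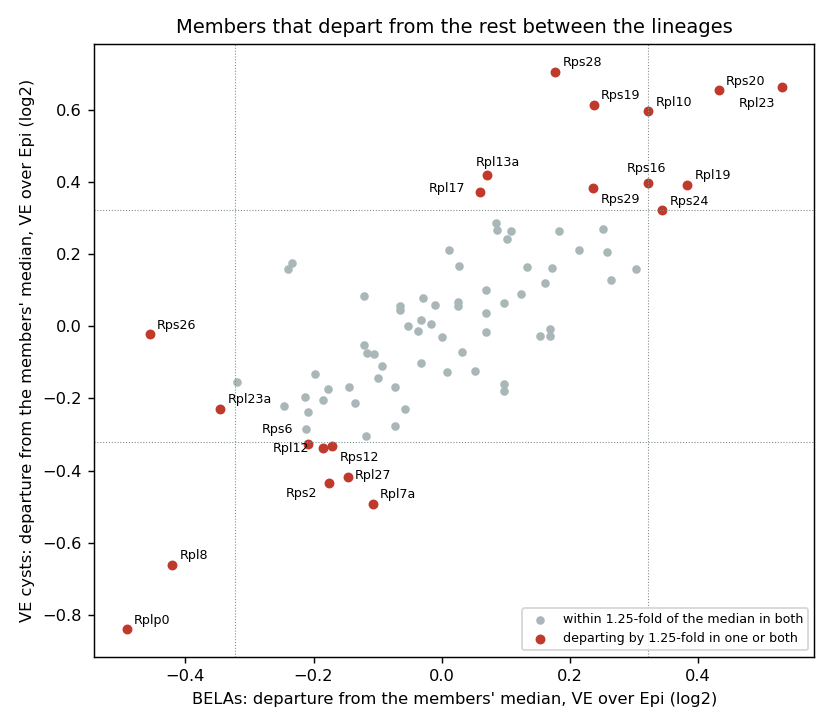
Departure of each of the 83 members from the members' median log2 ratio of VE over Epi cells, in BELAs (x axis) and in VE cysts (y axis). Red points depart by 0.32 or more (dotted lines) in one or both libraries, with Rplp0 and Rpl8 lowest and Rpl23, Rps20 and Rpl10 high in both.

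The Epi cells of BELAs and Epi cysts had nearly the same ribosomal protein levels. The pooled ratio of BELA Epi over Epi cyst Epi cells was 1.028 (1.028 to 1.029), with a members' median of 0.03 against -0.04 for all 7823 genes. Of 84 members 0 were called lower, against 4.27% of all genes, and 1 was called higher, against 5.53%. That one, Rpl39l, passed the limit of 10 CPM only through BELA Epi cells (11.2 CPM, against 3.79 CPM in Epi cyst Epi cells). Of the 83 members 8 departed from the median, against 25.2% of all genes. Downwards went 7: Rps29 (-0.48), Rpl29 (-0.45), Rpl22l1 (-0.39), Rps21 (-0.36), Rps27 (-0.35), Rpl10 (-0.33) and Rps28 (-0.32). Upwards went 1, Rps27rt (0.38), a retrotransposed copy of Rps27 whose reads cannot be cleanly told from those of its parent, and closest below the limit were Rpl3 (0.31), Rpl8 (0.29), Rps3 (0.27) and Rpl13 (0.25).

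The VE cells of BELAs held more ribosomal protein mRNA than those of VE cysts. The pooled ratio of BELA VE over VE cyst VE cells was 1.184 (1.183 to 1.185), and the median of the members was 0.29 against -0.12 for all 8213 genes. Of 85 members 6 were at least 1.5-fold higher, against 6.75% of all genes: Rpl18 (3478 CPM in BELA VE and 1919 CPM in VE cyst VE cells, 1.81-fold), Rpl8 (1.76-fold), Rpl13, Rpl27, Rps18 and Rplp0. At least 1.5-fold lower were 3, against 14.1%: Rpl29, Rps28 and Rpl10l, the last of which passed 10 CPM only through VE cyst VE cells. The share of members called higher was thus near that of all genes. With log2 ratios centred on the median of all genes, 14 were higher and 2 lower, but these counts have no share over all genes beside them. Of the 83, 15 departed from the members' median, 3 upwards and 12 downwards, against 49.9% of all genes.

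The downward departures in BELA VE cells were led by Rpl29 and by 3 of the shortest members. Rpl29 (chromosome 9, 106428889 to 106431568) stood at 105 CPM in BELA VE and 197 CPM in VE cyst VE cells, 1.88-fold lower, with a departure of -1.16. Its level was also lower in BELA Epi (148 CPM) than in VE cyst Epi (320.2 CPM) and Epi cyst Epi cells (199 CPM). Rps28, with one of the shortest transcripts, had 2629.5 CPM in BELA VE and 3150.4 CPM in BELA Epi cells, against 4598 CPM in VE cyst VE, 4507 CPM in VE cyst Epi and 3873 CPM in Epi cyst Epi cells. It departed by -1.09 between the VE groups. Rps29 (390 bases) followed at -0.82, with 2875 CPM in BELA VE and 3305 CPM in BELA Epi cells against 4147, 5086 and 4516 CPM in VE cyst VE, VE cyst Epi and Epi cyst Epi cells. Rps27 (345 bases) departed by -0.74, Rpl10 by -0.67, Rpl35 by -0.59 and Rpl38, which in mice is needed for translation of some Hox mRNAs, by -0.56. For Rpl29, Rps28, Rps29, Rpl10, Rpl35 and Rps21, both lineages of BELAs were below every group of the cyst libraries. Upwards departed Rpl18 (0.57), Rpl8 (0.52) and Rpl13 (0.36).

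**Figure D3:**
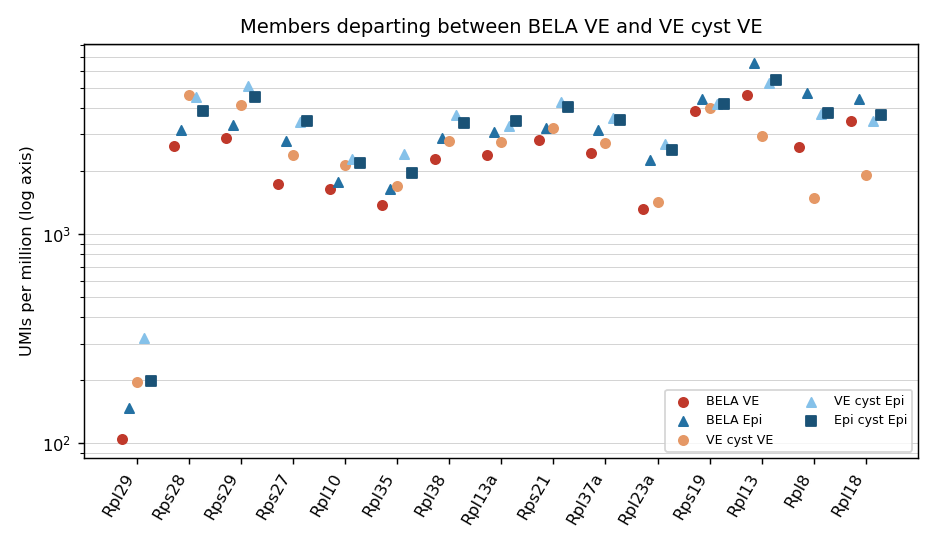
Level, in CPM on a log axis, of the 15 members that departed between BELA VE and VE cyst VE cells, ordered from the lowest departure (Rpl29, -1.16) to the highest (Rpl18, 0.57). Circles are VE cells, triangles the Epi cells of the same libraries and squares the cells of Epi cysts, and for Rps28 and Rps29 both BELA groups lie below all 3 cyst groups.

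Transcript length went with the differences between libraries. Among the 83 members, Spearman's rho between the length of the GENCODE vM21 transcript and the departure was 0.31 for BELA VE over VE cyst VE and 0.27 for BELA Epi over Epi cyst Epi cells, but 0.02 and -0.13 for VE over Epi within BELAs and within VE cysts. The 21 shortest members (up to 586.5 bases) had a median departure of -0.05 and the 21 longest (from 1107.5 bases) of 0.12 between the VE groups, and of -0.13 and 0.08 between the Epi groups. Over all genes rho was -0.33 between the VE groups (3358 genes) and -0.04 between the Epi groups (2998 genes). The 67 other genes as short as these members lay at -0.08 between the VE groups and at -0.09 between the Epi groups. Library preparation and culture differ together between the libraries, and their part was not tested.

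The paralogues were mostly faint beside their parents and did not share one direction. Rpl10l, an autosomal copy of the X-linked Rpl10 that serves male meiosis in mice, was higher in the VE of both libraries: 9.85 CPM in BELA VE against 4.62 CPM in BELA Epi cells (2.13-fold, 1.86 to 2.45), and 18.1 CPM in VE cyst VE against 4.88 CPM in VE cyst Epi cells (3.72-fold, 2.41 to 6.04). It still came to under 1 UMI per 100 of Rpl10 in every group (0.843 in VE cyst VE and 0.214 in VE cyst Epi cells). Rpl39l, a copy of Rpl39 known from mouse testis, was at 18.6 CPM in BELA VE and 11.2 CPM in BELA Epi cells, and at 12.2 CPM in VE cyst VE, 18.8 CPM in VE cyst Epi and 3.79 CPM in Epi cyst Epi cells. In BELAs its UMIs lay in 20.3% of VE and 32.8% of Epi cells, so the higher VE level came from fewer cells. Rpl3l, the striated muscle form of Rpl3, did not pass 0.527 CPM in any group, with 2 to 38 UMIs.

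Of the more abundant paralogues, Rpl36al varied least against its parent. It had 55.0 UMIs per 100 of Rpl36a in BELA VE and 55.6 in BELA Epi cells, and 52.7 to 53.8 in the cyst groups. Rpl22l1, which is known to rise when Rpl22 is lost, had 32.7 per 100 of Rpl22 in BELA VE and 29.9 in BELA Epi cells, 31.2 in VE cyst VE and 35.5 in VE cyst Epi cells, but 46.3 in Epi cyst Epi cells. In Epi cysts this went with a Rpl22l1 level of 1048 CPM against 812 CPM in BELA Epi cells. The parent was lower there as well, with Rpl22 at 0.798% of member UMIs in Epi cyst Epi and 0.931% in BELA Epi cells. Rps27l, a p53 target in mouse and human cells, had 71.6 per 100 of Rps27 in BELA VE and 50.4 in BELA Epi cells, and 44.4 to 45.4 in the cyst groups, with Rps27 itself low in BELA VE. Rpl7l1 stayed at 5.19 to 6.27 per 100 of Rpl7. Rps19bp1 was at 67.9 to 99.6 CPM and did not depart in any of the 4 comparisons.

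Among ribosomal proteins that the naming rule misses, Fau, the precursor of Rps30, had a log2 ratio of -0.10 in BELAs and -0.23 in VE cysts, while Rack1, a scaffold protein gene, had ratios of -0.22 and -0.59. Both lay closer to their Epi level in the VE than the members' median.

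Most genes of ribosome biogenesis and RNA polymerase I transcription were also lower in the VE, with medians below that of the members. As above, 22.3% of all genes were called lower in BELA VE and 23.3% in VE cyst VE cells. Of 26 ribosome biogenesis genes 18 were at least 1.5-fold lower in BELA VE and 1 higher, with a median log2 ratio of -0.72, and in VE cyst VE cells 22 were lower and 1 higher, with a median of -1.54. The RNA helicase gene Ddx21 had 77.9 CPM in BELA VE and 178 CPM in BELA Epi cells, and 50.2 CPM in VE cyst VE and 293 CPM in VE cyst Epi cells. The nucleolar methylase and snoRNP genes Nop2 (-0.80 in BELAs, -2.14 in VE cysts), Gar1 (-1.13 and -1.87) and Nhp2 (-0.84 and -1.90) were also lower. The exception in both was Dkc1, the pseudouridine synthase of the same snoRNPs, at 370 CPM in BELA VE against 223 CPM in BELA Epi cells and at 466 CPM in VE cyst VE against 263 CPM in VE cyst Epi cells. Genes of RNA polymerase I transcription had medians of -0.88 (7 of 10 lower) and -0.98 (7 of 11 lower), with Polr1a at -1.29 and -1.49, and genes of subunit assembly and export -0.29 (3 of 16 lower) and -0.77 (12 of 16 lower), so the share of assembly genes lower in BELAs was near that of all genes.

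Other TOP transcripts were mostly lower in the VE as well. Of 11 measured, 6 were at least 1.5-fold lower in BELA VE (median -0.80) and 8 in VE cyst VE cells (median -0.74), and 0 were called higher in either. The list includes Gas5, Snhg6, Snhg8 and Snhg12, which are non-coding RNAs, and the last 3 were called lower in both libraries. The mRNAs called lower were Nap1l1, Hnrnpa1 and Npm1 in both, and Naca and Btf3 in VE cysts only. Npm1, a nucleolar chaperone, had 3122 CPM in BELA VE against 5982 CPM in BELA Epi cells, and 1779.7 CPM in VE cyst VE against 5829.8 CPM in VE cyst Epi cells. The histone chaperone gene Nap1l1 was lowest of the list, at -1.49 and -2.37, whereas Tpt1 kept its level (-0.01 and -0.14). Elongation factors had medians of -0.14 and -0.61, with Eef1a1 at 0.11 and 0.16 and Eef1g at -0.72 and -1.23. Initiation factors and mRNA-binding factors had medians of -0.28 (4 of 25 lower) and -0.49 (10 of 25 lower), with Eif1ax lowest at -1.86 and -2.54. The 78 mitochondrial ribosomal proteins had medians of -0.16 (11 lower, 1 higher) and -0.36 (31 lower, 4 higher). In BELAs the shares of initiation factors and of mitochondrial ribosomal proteins called lower were below the 22.3% of all genes.

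Regulators were mixed. Among 15 genes of mTORC1 and TOP control the median was -0.08 in BELAs and 0.06 in VE cysts. Larp1, which binds TOP mRNAs, was at -0.90 and -1.01, the mTOR-binding inhibitor gene Deptor at -1.80 and -1.87, and the stress-induced mTORC1 inhibitor gene Ddit4 at -2.34 and -1.51, while Akt1s1, an mTORC1 component, was at 0.65 and 0.79. The 5 measured Myc family genes had medians of -0.01 and 0.14. Mycn had 43.6 CPM in BELA VE and 43.8 CPM in BELA Epi cells, and 22.2 CPM in VE cyst VE and 61.5 CPM in VE cyst Epi cells. Mxd4, a Myc antagonist, was at 0.99 and 2.27, with 17.2 CPM in BELA VE, 6.17 CPM in BELA Epi, 70.4 CPM in VE cyst VE and 10.7 CPM in VE cyst Epi cells. Ribosome quality control and stress genes had medians of 0.06 and 0.18, and the interferon-induced kinase gene Eif2ak2 was at 0.63 and 1.69. Between the VE groups, BELA VE over VE cyst VE, biogenesis genes had a median of 0.50, and Mxd4 stood at -1.77. Of the 26 biogenesis genes 9 were called higher there, against 6.75% of all genes. Between the Epi groups, BELA Epi over Epi cyst Epi, 0 of the 26 biogenesis genes were called and their median was -0.11. Of all genes 5.53% were called higher and 4.27% lower in that comparison.

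**Figure D4:**
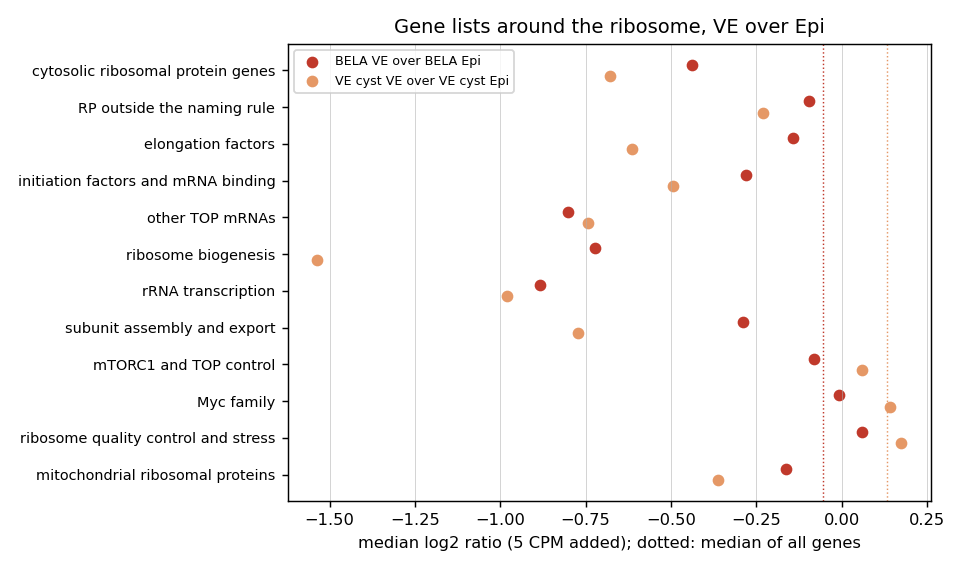
Median log2 ratio of VE over Epi cells, with 5 CPM added, for the cytosolic ribosomal protein genes and for each gene list around the ribosome, in BELAs (red) and in VE cysts (orange). Dotted lines mark the median of all genes, -0.05 in BELAs and 0.13 in VE cysts, and ribosome biogenesis in VE cysts lies lowest at -1.54.

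Between cells of a group the composition of the members varied by more than sampling. Given a cell's total of member UMIs, the variance of a protein proper was a median of 4.66 times the binomial one in BELA VE, 3.64 in BELA Epi, 3.22 in VE cyst VE and 2.50 in Epi cyst Epi cells, which corresponds to an added variation of 10.8, 9.04, 12.0 and 7.74% of the level. This ratio grows with a member's count. Rpl29 had the lowest ratio (1.09 to 1.21 times), at its low counts, with an added variation of 8.25 to 12.0% of its level. The ratio was highest for Rps26 in BELA VE (19.7 times), Rps19 in VE cyst VE (11.4 times) and Rps20 in both Epi groups (24.7 times in BELA Epi, 10.0 times in Epi cyst Epi). By added variation the order differed. Rps19 in VE cyst VE cells (18.7%) lay below Rps2 (21.5%) and Rps26 (20.2%), and Rps20 in Epi cyst Epi cells (14.3%) below Rps26 (15.7%). Rps20 took between 1.16 and 2.59% of member UMIs in BELA Epi cells (5th to 95th percentile), with a median of 1.91%.

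Rpl32, a large subunit gene on chromosome 6, had the next highest ratio after Rps20 in BELA Epi cells (22.4 times), and its distribution there had 2 clouds. This pattern was noticed in the data and then measured. For every cell, the level of the other chromosome 6 genes was averaged, leaving out all members, over genes of at least 50 CPM and relative to the group's median cell. In BELA VE 96 of 542 cells (17.7%), in BELA Epi 212 of 868 (24.4%) and in VE cyst Epi 8 of 48 (16.7%) reached 1.2 times the median. In VE cyst VE 32 of 577 cells (5.55%) and in Epi cyst Epi 32 of 656 (4.88%) did so. No other chromosome reached more than 5.30% of BELA Epi cells, and in BELA VE the next was chromosome 8 with 11.1%.

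In those cells Rpl32 was higher too, although it was not part of the average. It stood at 5378 CPM in the high and 4142 CPM in the other BELA VE cells (1.30-fold), and at 6783 CPM and 4909 CPM in BELA Epi cells (1.38-fold). In VE cyst VE cells it was at 4013 and 3032 CPM (1.32-fold), and in Epi cyst Epi cells at 5947 and 4453 CPM (1.34-fold). In VE cyst Epi cells it was at 6061 CPM in the 8 high and 4114 CPM in the 40 other cells (1.47-fold). The median fold of the other chromosome 6 genes, which had chosen the cells, was 1.39 to 1.48 in the 5 groups, and that of any other chromosome between 0.955 and 1.14. Across BELA Epi cells Spearman's rho between the percentage of member UMIs from Rpl32 and the chromosome 6 level was 0.62, the highest of the 79 members set against their own chromosome (median 0.04). It was 0.38 across BELA VE, 0.33 across Epi cyst Epi and 0.04 across VE cyst VE cells. Both measures come from the same library and depth. The members as a whole took a smaller share in the high cells, 20.4% against 22.1% in BELA VE and 27.8% against 29.7% in BELA Epi cells. Without the high cells, the departure of Rpl32 for BELA Epi over Epi cyst Epi was 0.09 in place of 0.22. It was 0.20 in place of 0.13 for VE over Epi in BELAs, 0.24 in place of 0.16 in VE cysts, and 0.15 in place of 0.21 for BELA VE over VE cyst VE. Chromosome number was not measured, and its part was not tested.

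**Figure D5:**
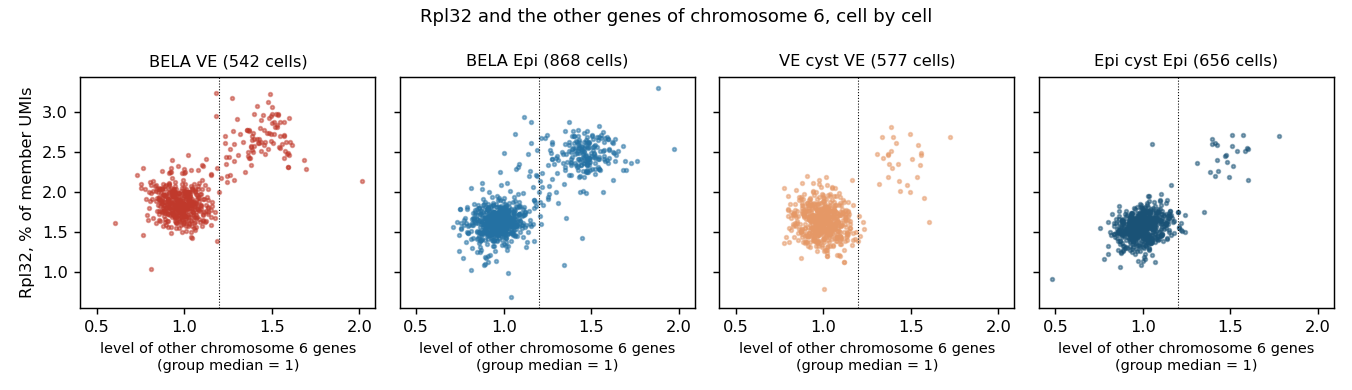
Percentage of member UMIs from Rpl32 (y axis) against the mean level of the other chromosome 6 genes, with the group's median cell at 1 (x axis), for each cell of 4 groups. The dotted line marks 1.2, reached by 96 BELA VE, 212 BELA Epi, 32 VE cyst VE and 32 Epi cyst Epi cells, and in BELA Epi cells those to its right form a cloud of their own with high Rpl32.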

How the data were processed

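Single cells of the 3 kinds of aggregate were profiled with 10x Genomics 3' v3.1 chemistry. The authors aligned the reads to mm10 and counted them with Cell Ranger 4.0.0 (submitters' processing notes), and the deposited matrices hold raw UMI counts, 1 whole number per gene and barcode. From these counts, cells were filtered and assigned to lineages as described above, UMIs were summed per group and scaled to CPM, and log2 ratios were taken with 5 CPM added. No doublet caller was run. Cells with markers of both lineages were left out in 1 alternative. Levels have exact 95% Poisson intervals and ratios exact binomial ones. With 1 library per condition there was no test and no p-value. The comparison code was tested on simulated data. Python 3.11.15, NumPy 2.4.6, SciPy 1.17.1 and pandas 2.3.3 were used. All 86 members had a GENCODE vM21 transcript length and 66 a RefSeq (GRCm38.p6) start.

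For each comparison the text names the 5 members departing most in each direction, the 5 highest and 5 lowest levels, all paralogues with their parents, Rps19bp1 and, per list, genes from the 3 of largest change. Members departing beyond these, Dkc1, Tpt1, Eef1a1, Akt1s1, Lhx1, T and Rpl32 were named after their values were seen. Some genes that the rule would name are not reported here. The members, lists and rules were chosen with earlier results of these data known. Other settings, 9 in all, began with a looser cell filter (3000 genes, 20% mt- UMIs) and thinning to 40000 UMIs, without the cells below that depth. The rest were clear lineage only, means of per-cell shares, centring, CPM without mt- genes, 1 or 20 CPM added, and no level filter. Thinning kept 473 of the 577 VE cyst VE cells, the largest loss of any group. Another setting, leaving out cells of high chromosome 6 level, was chosen after seeing the data.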

Additional observations from a re-analysis of the deposited data

Results flagged for a closer look

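Rpl39l went in opposite directions between the lineages of the 2 libraries. Its log2 ratio of VE over Epi cells was 0.55 in BELAs and -0.47 in VE cysts, a difference of 1.01. It rests on 81 UMIs in the VE cyst Epi cells, and the difference was not tested.

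Signal appeared in 3 of the 5 -ps symbols that the naming rule left out, with Rpl9-ps6 at 114 CPM, Rpl10-ps3 at 93.9 CPM and Rpl36a-ps1 at 25.3 CPM over all kept cells, where a count of 0 would allow 0.0145 CPM. Reads of a parent and of such a copy are hard to tell apart. Rpl9-ps6 was at 123 CPM in BELA VE and 160 CPM in BELA Epi cells, and at 49.5 CPM in VE cyst VE, 69.9 CPM in VE cyst Epi and 81.0 CPM in Epi cyst Epi cells.

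The barcodes that failed the cell filter also held ribosomal protein UMIs, as 22.7% of all UMIs in BELAs (810 barcodes), 20.9% in Epi cysts (419) and 16.2% in VE cysts (256). The kept cells of these libraries held 25.98, 28.4 and 19.5%. Among the failed barcodes with few genes but a low mitochondrial share the values were 31.9% in BELAs (406 barcodes), 30.9% in Epi cysts (159) and 22.9% in VE cysts (132), each above the kept cells of its library.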

How the results depend on the processing

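Each condition is 1 library, so no replicate could be left out, and the VE cyst Epi group holds 48 cells. The pooled log2 ratio kept its direction in each comparison under each alternative. For BELA VE over BELA Epi (-0.42) it was -0.43 with the looser filter, with thinning, with means of per-cell shares and without cells of high chromosome 6 level, -0.44 with clear lineage only, -0.37 when centred and -0.40 without mt- genes. For VE cyst VE over VE cyst Epi (-0.63) it was -0.61 with thinning, -0.64 with clear lineage only and without cells of high chromosome 6 level, -0.60 with means of per-cell shares, -0.76 when centred and -0.59 without mt- genes. For BELA Epi over Epi cyst Epi (0.0405) it was 0.0458 with the looser filter, 0.0450 with thinning, 0.0371 with clear lineage only, 0.0525 with means of per-cell shares, 0.0850 when centred, 0.0443 without mt- genes and 0.0584 without cells of high chromosome 6 level. For BELA VE over VE cyst VE (0.24) it was 0.24 with the looser filter, 0.23 with thinning, clear lineage, means of per-cell shares and without mt- genes, 0.36 when centred and 0.26 without cells of high chromosome 6 level. The number of members past 1.5-fold moved by over 1.5 times in 2 cases: for BELA Epi over Epi cyst Epi it was 0 in place of 1 with 20 CPM added, and for BELA VE over VE cyst VE 16 in place of 9 when centred. The number of departing members stayed within 1.5 times of its value under each of the 10 alternatives. Single departures that were not past the limit under all of them were those of Rps16, Rpl23a and Rpl10 for VE over Epi in BELAs, of Rps6 and Rps24 in VE cysts, and of Rps28 and Rpl10 between the Epi groups. No paired analysis was possible because each condition is 1 library.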

Other observations

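Chromosome 8 carries Rpl13. The genes of this chromosome other than members averaged at least 1.2 times the group's median in 60 of 542 BELA VE cells (11.1%) and 46 of 868 BELA Epi cells (5.30%), in 37 of 577 VE cyst VE cells (6.41%) and 0 of 48 VE cyst Epi cells, and in 9 of 656 Epi cyst Epi cells (1.37%). Spearman's rho between this level and the percentage of member UMIs from Rpl13 was 0.32 across BELA VE, 0.12 across BELA Epi, 0.26 across VE cyst VE and 0.04 across Epi cyst Epi cells, as a description of cells that share library and depth. In Epi cysts, the 84 cells with at least 3 UMIs of T, a gene of the primitive streak, had a member share of 28.7% and the 446 cells with none 28.3%.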
